A study of Arabidopsis thaliana with 12 samples.

Results

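Catalases and the core enzymes of photorespiration were followed as 10 genes of Arabidopsis thaliana, chosen by locus code from the 28642 genes of the deposited tables. They were the catalases CAT1 (AT1G20630), CAT2 (AT4G35090) and CAT3 (AT1G20620), the glycolate oxidases GOX1 (AT3G14420) and GOX2 (AT3G14415), and 5 further enzymes of the cycle. Those 5 were PGLP1 (AT5G36700), GGAT1 (AT1G23310), SHM1 (AT4G37930), HPR1 (AT1G68010) and GLYK (AT1G80380). RNA came from fully expanded rosette leaves, with 3 libraries for each of 4 genotypes: wild type, the double mutant sapx tapx, the single mutant pgr5, and the triple mutant sapx tapx pgr5. Per the labels, every plant spent 18 days at a photon flux of 40 to 60 µmol per square metre and second, followed by 90 min at 1500. The labels name the mutated genes but no alleles. Leaves that stayed in dim light were not analysed here, and each comparison is therefore between genotypes after strong light. SAPX and TAPX are ascorbate peroxidases of the chloroplast stroma and thylakoid that remove hydrogen peroxide. PGR5 is a thylakoid protein on which part of the cyclic electron transport of photosystem I depends.

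When Rubisco fixes oxygen in place of carbon dioxide, phosphoglycolate is formed and has to be recycled. PGLP1 dephosphorylates it in the chloroplast, GOX1 and GOX2 oxidise the glycolate in the peroxisome and release hydrogen peroxide, and catalase breaks that peroxide down on the spot. GGAT1 turns the glyoxylate into glycine, SHM1 makes serine from glycine in the mitochondrion, HPR1 reduces hydroxypyruvate to glycerate, and GLYK returns the glycerate to the chloroplast as a Calvin cycle intermediate. CAT2 is the main leaf catalase of Arabidopsis in the light, whereas CAT3 is best known from the vascular tissue and CAT1 from seeds and pollen.

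CAT2 was the member that differed most clearly between genotypes. Its RNA stood about 1.5 times higher in both genotypes that carry pgr5, with a fold of 1.44 in pgr5 and 1.58 in sapx tapx pgr5 relative to wild type. GOX2 and HPR1 were modestly higher in sapx tapx pgr5. CAT1, CAT3, GOX1, GLYK and PGLP1 passed the test in no comparison. None of the 10 genes was called in sapx tapx against wild type. Of all 16350 genes tested, only 6 (0.0367%) were called there, the mutated SAPX and TAPX among them.

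The libraries held 4916603 to 6828070 exon reads, of which 98.3 to 98.5% were unique. The deposited labels were checked on the mutated genes: SAPX was at 16.1 to 28.6 CPM in the 6 libraries with sapx tapx and at 198 to 249.8 CPM in the other 6, and TAPX at 17.6 to 27.2 and 155 to 210.3 CPM (CPM, reads of a gene per 1000000 reads after TMM scaling). PGR5 RNA did not fall, with 243 ± 1.48 CPM in wild type and 241 ± 8.49 in pgr5 (SD, n = 3), so RNA does not check that label. Replicate 2 of wild type, of sapx tapx and of sapx tapx pgr5 stood apart from their groups in 10 rapid stress and touch genes. The summed level of these genes was 1594 CPM in wild type replicate 2 and 242 CPM in the other 2 wild type libraries. In sapx tapx it was 606 CPM in replicate 2 against 1871 and 1363, and in sapx tapx pgr5 406 CPM against 1784 and 1355. The labels call the libraries replicates without saying that they came from separate plants, and the p-values cover only the spread among these libraries, some of which may be technical.

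The mesophyll markers RBCS1A, RCA and LHCB1.1 summed to 29476 to 39955 CPM, as labelled leaf tissue would show. By the average effect of pgr5 described below, LHCB1.1 was lower (log2 -0.39 ± 0.08) and RCA higher (0.27 ± 0.08, lost in 6 of 12 omissions). The senescence marker SAG12 and the root hair gene RHD6 were at 0 reads in all 12 libraries. Two-sided tests of the remaining senescence markers SGR1 (log2 0.54) and NYC1 (0.18) gave no call in pgr5 against wild type. The 3 senescence markers summed to 136 to 140 CPM in wild type and 139 to 153 in sapx tapx. Their sum was 157 to 165 CPM in pgr5 and 123 to 155 in sapx tapx pgr5. The summed level of 8 phloem markers was higher with pgr5. It was 540.4 to 627 CPM in wild type, 576 to 613 in the double mutant, 758 to 859 in pgr5 and 778 to 870.0 in sapx tapx pgr5. Not every marker rose: in pgr5 against wild type 5 of the 8 had a log2 fold change above 0, over a range of -0.05 to 1.19. Of these 8, SUC2, PP2-A1 and AHA3 were called higher in pgr5 against wild type (log2 fold change of SUC2 1.19 ± 0.11, SE, adjusted p = 0.000133, edgeR quasi-likelihood test with Benjamini-Hochberg adjustment). The AHA3 call was lost in 7 of 12 omissions and in 6 of 11 other settings. The 4 guard cell markers summed to 74.8 to 78.9 CPM in wild type, 64.8 to 74.3 in sapx tapx and 53.4 to 65.4 in the 6 libraries with pgr5. Of 4 trichome genes, 2 had enough reads to be tested in pgr5 against wild type. GL2 was called lower (log2 fold change -3.41 ± 0.43), whereas TRY stood at 0.46 and was not called. The summed level of the 4 was low, at 8.31 to 10.9 CPM in wild type and 6.90 to 7.99 in pgr5. PYK10, a root gene, was at 4.09 to 9.91 CPM without pgr5 and 10.2 to 16.4 CPM with it. Of 10 circadian clock genes, ELF3 alone was called in pgr5 against wild type (0.75 ± 0.17, lost in 5 of 12 omissions) and none in sapx tapx pgr5 against wild type. By the average effect of pgr5, ELF3 was higher (0.56 ± 0.12) and LUX lower (-0.52 ± 0.11), and both calls stayed in all 12 omissions. In bulk leaf RNA, fewer cells of a type and less RNA per cell cannot be told apart. Nor can any other difference shared by the lines with pgr5 be told apart from the pgr5 mutation itself. This holds for every comparison that involves pgr5. The part of these shifts in the results below was not tested.

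The 10 genes differ in how well reads can be assigned to them. CAT1 and CAT3 lie head to tail on chromosome 1, CAT3 at 7143067 to 7146540 and CAT1 at 7146636 to 7149977 on the plus strand, 95 bases apart (TAIR10). Their coding sequences are 68.8% identical over 1656 aligned columns, of which 177 are gaps, and CAT1 and CAT2 share 80.3% with 0 gaps. In these percentages a gap column counts as a difference. CAT2 lies on chromosome 4 at 16700342 to 16703325 on the minus strand, 20 bases from AT4G35080 on the plus strand, and the library kit does not mark strand. GOX2 (4818298 to 4821006) and GOX1 (4821523 to 4824178) are neighbours on the plus strand of chromosome 3, with 90.9% identical coding sequences. The other enzymes lie apart, GGAT1, HPR1 and GLYK on chromosome 1, SHM1 on chromosome 4 and PGLP1 on chromosome 5. For 9 members every read was counted as unique.

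The start of the coding sequence is shown for the GOX pair, since separate counts for them rest on telling them apart. Capitals mark the 8 of 150 bases that differ, and the sequences were read from the RefSeq TAIR10.1 genome.
GOX1: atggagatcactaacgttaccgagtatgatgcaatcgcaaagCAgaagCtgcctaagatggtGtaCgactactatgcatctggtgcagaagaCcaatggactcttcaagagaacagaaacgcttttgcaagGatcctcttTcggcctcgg
GOX2: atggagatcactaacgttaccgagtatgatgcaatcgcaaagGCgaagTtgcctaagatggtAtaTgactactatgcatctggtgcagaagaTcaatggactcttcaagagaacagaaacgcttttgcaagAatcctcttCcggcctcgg
Of all 50-base words of the GOX1 transcript, 1.19% also occur in GOX2, so nearly every fragment of that length distinguishes them.

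PGLP1 is different. Its coding sequence of 1089 bases is 100% identical to that of AT5G36790 on the same chromosome, and every 50-base word of its transcript occurs there too. In the other direction, 97.1% of the 50-base words of the AT5G36790 transcript occur in PGLP1. The first 90 coding bases are shown, and they are the same at both loci.
PGLP1: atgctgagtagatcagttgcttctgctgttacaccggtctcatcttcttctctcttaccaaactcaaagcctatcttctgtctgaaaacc
Of 15501 reads given to PGLP1 over the 12 libraries, 123 (0.793%) were unique. The share of the pooled reads that the counting gave to PGLP1 ran from 14.4 to 38.1%, and its values are therefore uncertain and read below with those of both loci summed.

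Measured as CPM per kilobase of exon, most of the pathway was among the most abundant RNAs of the leaf. SHM1 led with a mean of 1828 over the 12 libraries, rank 43 of the 16350 genes tested, followed by CAT2 with 1645 at rank 53. GOX1 followed with 952 at rank 92 and GGAT1 with 841 at rank 107, HPR1 with 447 and GOX2 with 432 held ranks 217 and 223. GLYK had 198, CAT3 163, PGLP1 alone 129 and CAT1 16.5. In wild type, the libraries of GOX1 (754 to 1019) and GGAT1 (658 to 832) overlapped, as did those of GOX2 and HPR1, while the other neighbours in the order did not overlap.

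The order at the top changed with pgr5. In wild type, SHM1 at 1706 to 1756 CPM per kilobase lay above CAT2 at 1179 to 1475, and in sapx tapx SHM1 at 1686 to 1807 again lay above CAT2 at 1172 to 1511. The ranges overlapped in pgr5, with SHM1 at 1893 to 2025 and CAT2 at 1797 to 1985. In sapx tapx pgr5 CAT2 at 1962 to 2263 lay above SHM1 at 1843 to 1901. This order is a description and was not tested.

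**Figure D1:**
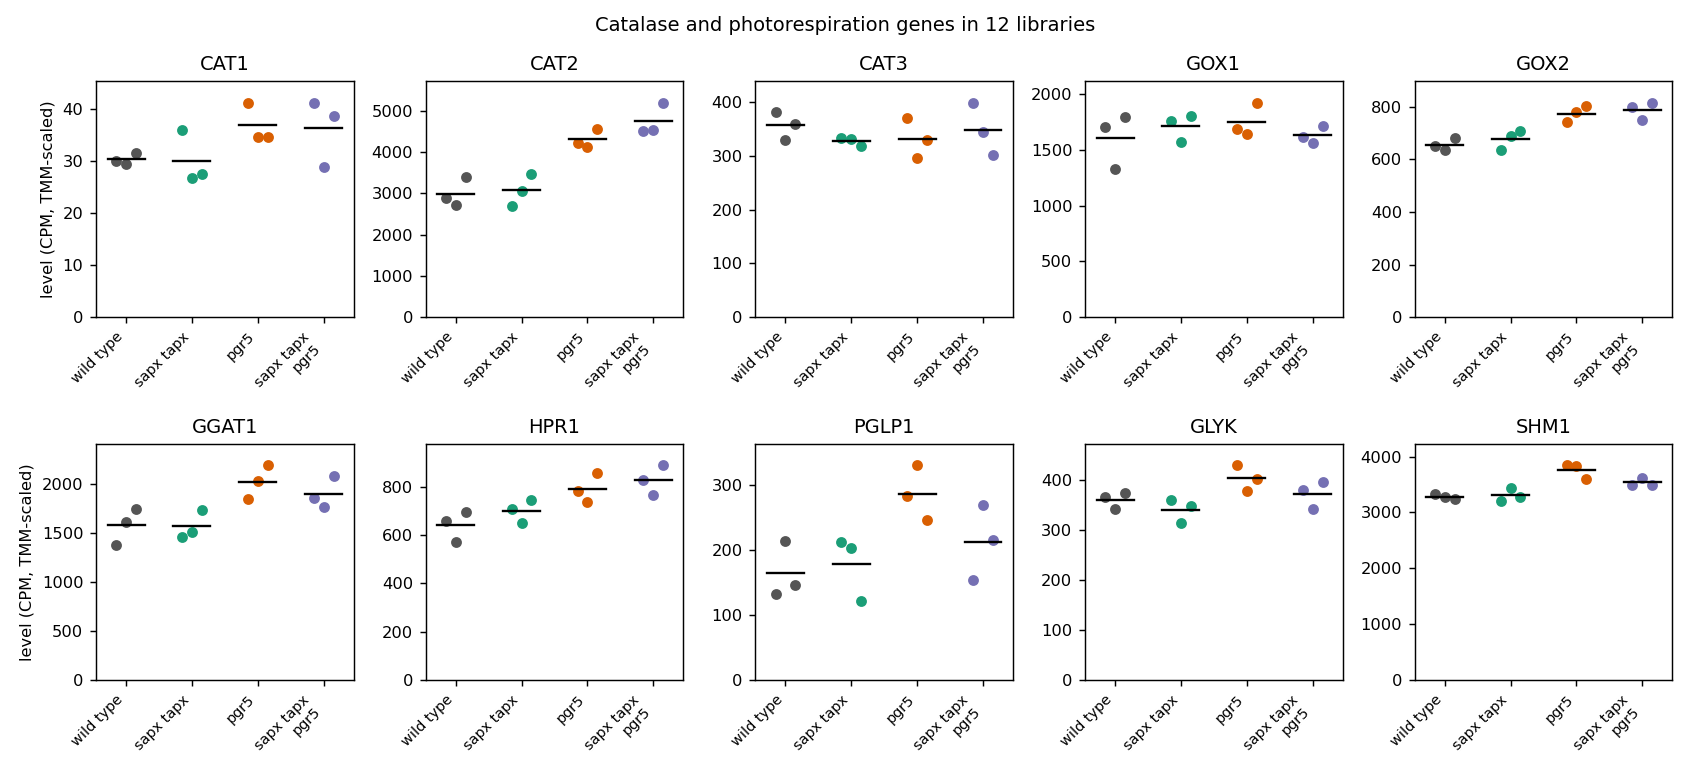
Level of each member in CPM (vertical axis, starting at 0, with its own scale in each panel) by genotype from wild type to the triple mutant; points are libraries and bars are means of 3 libraries. CAT2 in the 6 libraries with pgr5 (4130 to 5200 CPM) lies above the 6 without (2693 to 3471 CPM), whereas CAT3 and GOX1 overlap throughout.

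CAT2 was measured at 2886, 2710 and 3390 CPM in the wild type libraries and at 2693, 3052 and 3471 CPM in sapx tapx. It reached 4229, 4130 and 4561 CPM in pgr5 and 4508, 4525 and 5200 CPM in sapx tapx pgr5. The lowest library with pgr5 was above the highest without it. The log2 fold change of pgr5 against wild type was 0.52 ± 0.11 (SE, adjusted p = 0.022, edgeR quasi-likelihood test with Benjamini-Hochberg adjustment over all genes), the only call among the 10 members where 3.9% of all tested genes were called and 2.44% were called higher. That call was lost without wild type replicate 1 or 2 or without any of the 3 pgr5 libraries in turn, with adjusted p of 0.0519 to 0.0966 and a log2 fold change of at least 0.45. Against wild type the triple mutant gave 0.66 ± 0.11 (adjusted p = 0.00286) and against sapx tapx 0.63 ± 0.11 (adjusted p = 0.00414), and both calls stayed when any of the 12 libraries was left out. CAT2 did not pass the test between sapx tapx and wild type (0.04 ± 0.11, 95% interval -0.20 to 0.27) or between the triple mutant and pgr5 (0.14 ± 0.11, -0.10 to 0.38). The interaction, which asks whether pgr5 had another effect in the sapx tapx background, was 0.10 ± 0.15 (95% interval -0.23 to 0.44, adjusted p = 0.964).

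CAT3, the neighbour of CAT1 in the genome, gave 380.3, 329 and 359.6 CPM in wild type and 333, 331 and 319 in sapx tapx. It gave 370.3, 296 and 329 CPM in pgr5 and 399, 343 and 302 in sapx tapx pgr5. All groups overlapped wild type. Averaged over both backgrounds, the log2 difference with pgr5 was -0.01 ± 0.08, with a 95% interval of -0.17 to 0.16, below the 0.41 to 0.74 of CAT2. The difference between the 2 genes was not tested itself.

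CAT1 was the weakest catalase, at 127 to 257 reads per library. Wild type held 30.01, 29.4 and 31.5 CPM and sapx tapx 36.0, 26.8 and 27.5. In pgr5 it stood at 41.1, 34.7 and 34.6 CPM, above wild type in all 3, and in sapx tapx pgr5 at 41.2, 28.9 and 38.6, which overlaps. The log2 fold changes were 0.28 ± 0.15 in pgr5 and 0.26 ± 0.15 in sapx tapx pgr5, and neither passed the test (adjusted p = 0.339 and 0.319).

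CAT2 also held a larger share of all catalase RNA where pgr5 was mutated. Per kilobase of exon, CAT2 made up 86.4 to 88.7% of the summed catalase RNA in wild type and 86.9 to 90.1% in sapx tapx. The share was 90.3 to 91.9% in pgr5 and 90.3 to 93.3% in sapx tapx pgr5. The ratio of CAT2 to CAT3 was 6.90, 7.50 and 8.57 in wild type and 7.36, 8.39 and 9.89 in sapx tapx. It was 10.4, 12.7 and 12.6 in pgr5 and 10.3, 11.97 and 15.7 in sapx tapx pgr5, and no library with pgr5 lay within the range of the other 6. The summed catalase level was 1489 ± 159 CPM per kilobase in wild type, 1509 ± 164 in the double mutant, 2051 ± 102 in pgr5 and 2249 ± 154 in sapx tapx pgr5 (SD, n = 3). Shares, ratios and sums are descriptions and were not tested.

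**Figure D2:**
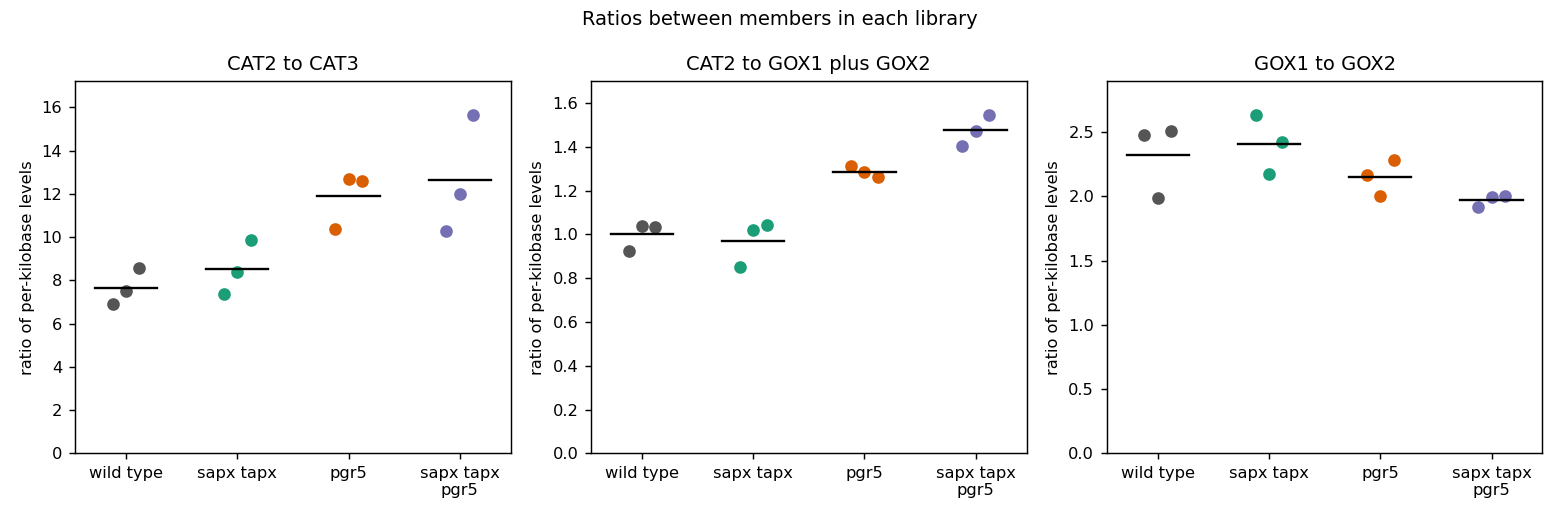
Ratios of CPM per kilobase within each library, one point per library and bars for group means: CAT2 to CAT3, CAT2 to the sum of GOX1 and GOX2, and GOX1 to GOX2. The CAT2 ratios are higher in the libraries with pgr5, and the GOX1 to GOX2 ratios overlap between wild type and all mutants.

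The upstream promoters of CAT2 and CAT3 are shown because CAT2 was called with pgr5 and CAT3 was not, a contrast that was not tested itself. Each is 250 bases before the start annotated by RefSeq for TAIR10.1, read 5′ to 3′ on the strand of the gene. CAT2 lies at chr4:16703505-16703754 (minus strand) and CAT3 at chr1:7142722-7142971 (plus strand). Capitals mark the evening element AAAATATCT, a motif bound by clock proteins, which lies 79 bases before the CAT3 start and is on neither strand of the CAT2 window.
CAT2: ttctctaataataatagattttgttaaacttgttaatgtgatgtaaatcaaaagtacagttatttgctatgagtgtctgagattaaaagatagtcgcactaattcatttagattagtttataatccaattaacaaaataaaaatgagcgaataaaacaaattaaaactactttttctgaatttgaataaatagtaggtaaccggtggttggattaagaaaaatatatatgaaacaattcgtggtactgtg
CAT3: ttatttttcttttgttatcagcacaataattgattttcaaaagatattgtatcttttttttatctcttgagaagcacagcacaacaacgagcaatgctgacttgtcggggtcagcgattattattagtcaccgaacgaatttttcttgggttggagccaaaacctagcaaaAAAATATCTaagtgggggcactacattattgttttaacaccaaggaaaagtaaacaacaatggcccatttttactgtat
Of 27443 promoters of that length, 2.36% held the evening element on either strand, among the 10 members CAT3 alone. The G-box CACGTG was in 6.49% of promoters and in GGAT1, its core ACGTG (which the G-box contains) in 22.9% and in CAT1, GGAT1 and HPR1, the CCA1 site AAAAATCT in 6.69% and in GOX1, and the heat shock core GAANNTTC in 9.55% and in no member. These matches are letters in a window, and nothing about binding was measured.

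Of the glycolate oxidases, the less abundant GOX2 was called in a comparison with wild type and GOX1 was not. GOX2 gave 653, 635 and 681 CPM in wild type and 634, 688 and 709 in sapx tapx. It gave 741, 780.4 and 802 CPM in pgr5 and 801, 748 and 817 in sapx tapx pgr5, so that all 6 libraries with pgr5 were above all 6 without. The log2 fold change of sapx tapx pgr5 against wild type was 0.26 ± 0.07 (adjusted p = 0.0269). That of pgr5 against wild type was 0.24 ± 0.07 and did not pass (adjusted p = 0.0728). The call in sapx tapx pgr5 was lost without any of the 3 wild type libraries or without sapx tapx pgr5 replicate 1 or 3 (adjusted p = 0.0574 to 0.0988).

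GOX1 overlapped between all genotypes. Its libraries ran 1703, 1328 and 1793 CPM in wild type, 1756, 1571 and 1805 in the double mutant, 1686, 1644 and 1925 in pgr5, and 1615, 1566 and 1718 in sapx tapx pgr5. The log2 fold change of sapx tapx pgr5 against wild type was 0.02 ± 0.11 (95% interval -0.21 to 0.26), and that of pgr5 against wild type 0.12 ± 0.11 (-0.11 to 0.36), an interval that covers the 0.24 of GOX2. No difference between the oxidases was tested. The summed level of both oxidases was 1305 ± 153 CPM per kilobase in wild type and 1399 ± 63.5 in sapx tapx pgr5. The ratio of CAT2 to the summed oxidases was 0.925 to 1.04 in wild type, 0.851 to 1.04 in the double mutant, 1.26 to 1.31 in pgr5 and 1.41 to 1.55 in sapx tapx pgr5. The range of pgr5 overlapped none of the others, nor did that of sapx tapx pgr5.

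GGAT1, the glutamate:glyoxylate aminotransferase, gave 1379.6, 1606 and 1746 CPM in wild type, 1455, 1509 and 1728 in the double mutant, 1841, 2023 and 2188 in pgr5, and 1857, 1760 and 2079 in sapx tapx pgr5. Every library with pgr5 lay above every library without it, by a narrow margin between 1746 and 1760 CPM. Neither comparison with wild type passed (log2 0.36 ± 0.11, adjusted p = 0.089 in pgr5 and 0.27 ± 0.11, adjusted p = 0.136 in sapx tapx pgr5).

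HPR1, the peroxisomal hydroxypyruvate reductase, gave 658, 573 and 694 CPM in wild type and 707, 648 and 744 in sapx tapx. It gave 781, 738 and 855 CPM in pgr5 and 826, 766 and 889 in sapx tapx pgr5. Both genotypes with pgr5 lay above wild type, while pgr5 overlapped sapx tapx. The log2 fold change was 0.37 ± 0.09 in sapx tapx pgr5 (adjusted p = 0.0269) and 0.30 ± 0.09 in pgr5, which did not pass (adjusted p = 0.0954). Without wild type replicate 1 or 2 or sapx tapx pgr5 replicate 1 or 3 the call was lost (adjusted p = 0.0702 to 0.114).

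SHM1, the mitochondrial serine hydroxymethyltransferase, was read at 3334, 3281 and 3239 CPM in wild type, 3202, 3431 and 3276 in the double mutant, 3845, 3836 and 3594 in pgr5, and 3499, 3610 and 3499 in sapx tapx pgr5. The libraries with pgr5 lay above the others, with log2 fold changes of only 0.19 ± 0.06 in pgr5 (adjusted p = 0.0898) and 0.11 ± 0.06 in sapx tapx pgr5 (adjusted p = 0.282). GLYK, the glycerate kinase that closes the cycle, ranged from 342 to 374 CPM in wild type, 313 to 359 in the double mutant, 378 to 429 in pgr5 and 343 to 395 in sapx tapx pgr5. Its log2 fold changes against wild type were 0.16 ± 0.08 in pgr5 and 0.05 ± 0.08 in sapx tapx pgr5, neither past the threshold.

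PGLP1 counted alone had the largest fold of the 10 genes in pgr5, at 133, 214 and 145 CPM in wild type and 283, 329.8 and 246 in pgr5 (log2 0.80 ± 0.25, adjusted p = 0.104). With sapx tapx at 213, 202 and 121 CPM and sapx tapx pgr5 at 154, 268 and 216, it also had the widest spread. Summed with the locus of identical coding sequence AT5G36790, the reads gave 784, 818 and 783 CPM in wild type, 831, 839 and 840.2 in the double mutant, 852, 866 and 842 in pgr5, and 829, 883 and 879.6 in sapx tapx pgr5. The log2 fold change of the sum in pgr5 was 0.10 ± 0.05 (adjusted p = 0.334). AT5G36790 alone held 567 ± 29.9 CPM in pgr5 and 631 ± 24.3 in wild type, and the share given to PGLP1 was 29.2 to 38.1% in pgr5 and 16.9 to 26.2% in wild type. The separate row of PGLP1 was called by DESeq2 (adjusted p = 0.0323), without wild type replicate 2 (0.0468 by edgeR) and without the 3 libraries that stand apart (0.0106 by edgeR).

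**Figure D3:**
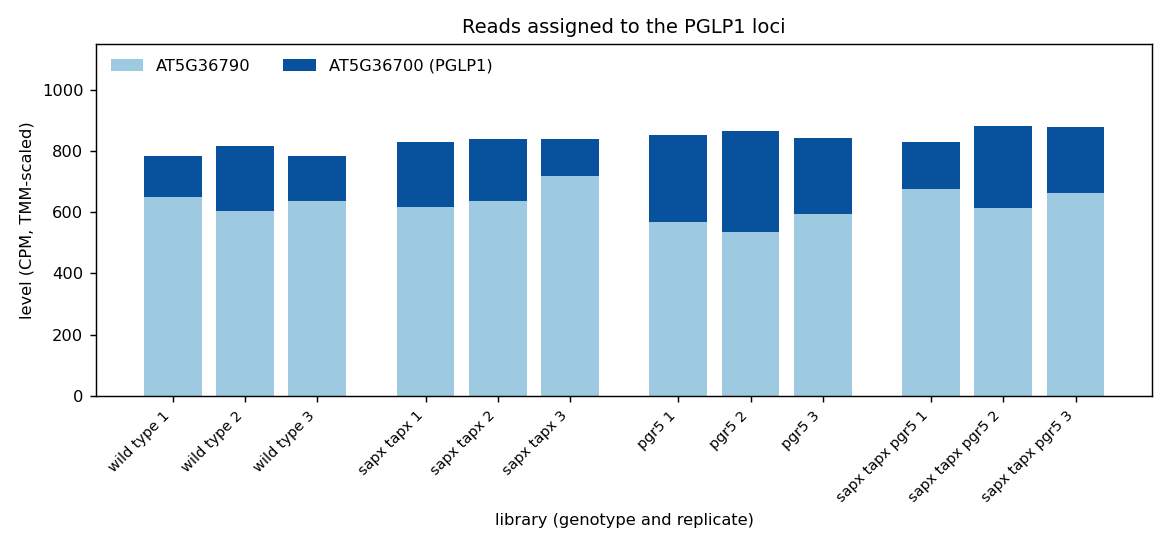
Stacked bars of the CPM given to AT5G36790 (light) and PGLP1 (dark) in each of the 12 libraries, on an axis from 0. The full height of the bars stays between 783 and 883 CPM while the share given to PGLP1 varies from 14.4 to 38.1%.

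In counts, 3 of 10 members were called higher in sapx tapx pgr5 against wild type, CAT2, GOX2 and HPR1, where 10.3% of all genes were called and 6.21% were called higher. The comparison of sapx tapx pgr5 with sapx tapx called CAT2 alone, where 7.91% of all genes were called and 4.78% higher. No member was called in sapx tapx against wild type (0.0367% of genes, members from -0.12 to 0.13 on the log2 scale), in sapx tapx pgr5 against pgr5 (1.54%) or in the interaction (0.141%). DESeq2 also called no member in those 3 comparisons. At an unadjusted p under 0.05 the edgeR counts were 0, 0 and 0 members in the same order, where 7.50%, 14.1% and 7.04% of all genes passed. The calls over all genes in these comparisons depended on the libraries: in sapx tapx against wild type they went from 6 to 81 without wild type replicate 2 and to 773 without the 3 libraries that stand apart. Without those 3, sapx tapx pgr5 against pgr5 went from 252 to 1091 and the interaction from 23 to 325, and the members called stayed at 0 in each. Libraries did not overlap for 8 of 10 members in pgr5 against wild type, all higher, where 25.8% of all genes did not overlap and 13.7% were higher. Of the 10, CAT2, GOX2, GGAT1, HPR1 and SHM1 did not overlap and were higher in sapx tapx pgr5 against wild type (27.2% of genes, 14.1% higher), and these 5 also against sapx tapx (24.3%, 12.5% higher). No member was free of overlap in sapx tapx against wild type (11.5% of genes) or in sapx tapx pgr5 against pgr5 (20.5%).

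Since the interaction gave no call, an average effect of pgr5 over both backgrounds was added after the single comparisons had been seen. By it 5 of 10 members were higher and 0 lower, where 14.9% of all genes were called and 8.28% higher. CAT2 rose by 0.58 ± 0.08 on the log2 scale (fold 1.49, adjusted p = 0.000506), GGAT1 by 0.32 ± 0.07 (adjusted p = 0.0143), HPR1 by 0.27 ± 0.07 (adjusted p = 0.016), GOX2 by 0.23 ± 0.05 (adjusted p = 0.00735) and SHM1 by 0.15 ± 0.04 (adjusted p = 0.0325). The SHM1 call was lost in 10 of 12 omissions of a library and the others in none. Of the members not called, PGLP1 alone stood at 0.53 ± 0.18 (adjusted p = 0.0668) and its summed loci at 0.07 ± 0.04 (0.228). CAT1 stood at 0.27 ± 0.11, GLYK at 0.14 ± 0.06 and GOX1 at 0.03 ± 0.08. The corresponding average effect of sapx tapx called 0 members (0.972% of genes), with log2 differences from -0.15 to 0.09. All 6 libraries with pgr5 exceeded all 6 without for 4 members, CAT2, GOX2, GGAT1 and SHM1, where 3.66% of all genes did so.

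**Figure D4:**
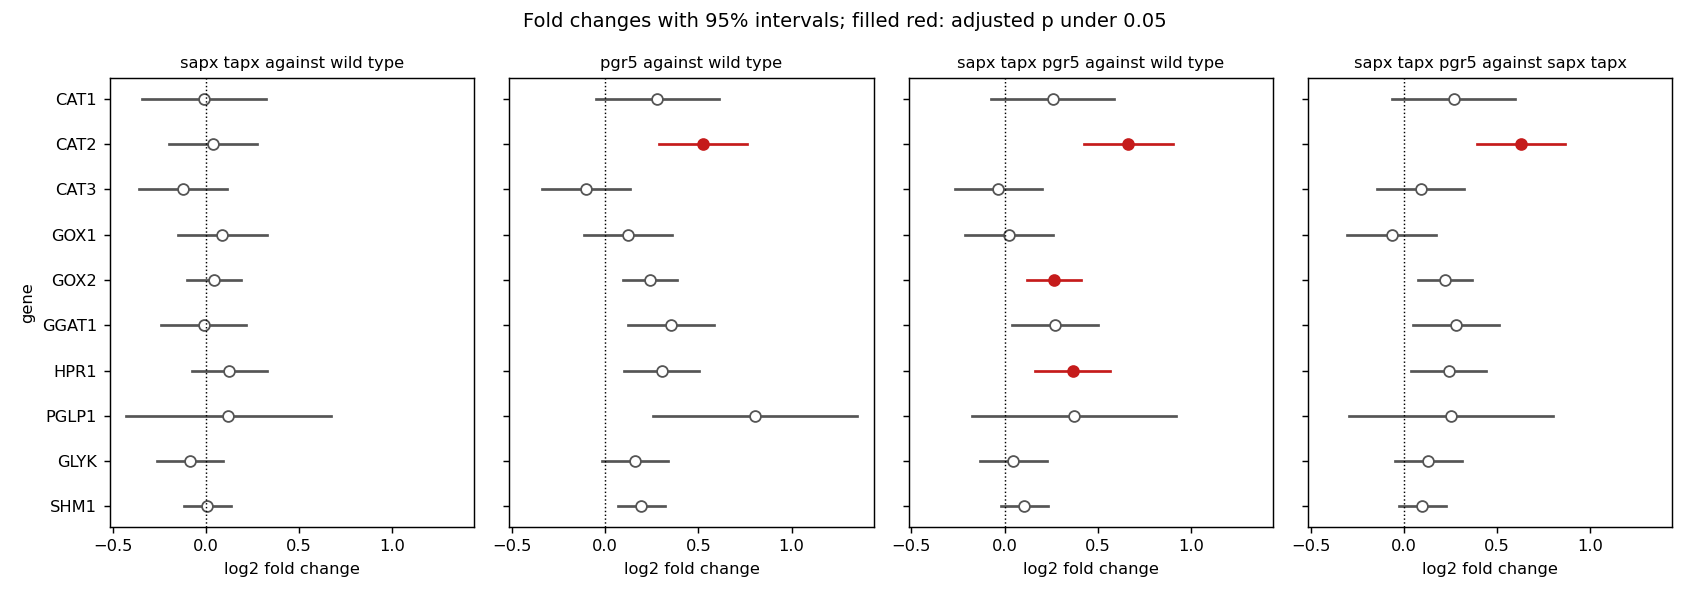
Log2 fold change (horizontal axis) of each of the 10 members in 4 comparisons, with lines for 95% intervals from the edgeR fit and filled red points for adjusted p under 0.05. CAT2 is called in the 3 comparisons that involve pgr5, at 0.52 to 0.66, and PGLP1 has the widest intervals.

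The other genes of the photorespiratory cycle went both ways, from -0.34 to 0.56 on the log2 scale in sapx tapx pgr5 against wild type. Of 26, 25 were tested (GOX3 had too few reads). Against wild type, 0 were called in pgr5, where 3.9% of all genes were called. In sapx tapx 0 were called, where 0.0367% of all genes were called. In sapx tapx pgr5 against wild type AGT1, the serine:glyoxylate aminotransferase of the peroxisome, rose by 0.45 ± 0.09 on the log2 scale (adjusted p = 0.0068). HPR2, a cytosolic hydroxypyruvate reductase, rose by 0.56 ± 0.15 (adjusted p = 0.0318), a call lost in 8 of 12 omissions. These 2 of 25 stand beside 6.21% of all genes called higher, and both folds were larger than those of the called members GOX2 and HPR1. The median of the 25 was 0.05 in pgr5 and 0.04 in sapx tapx pgr5, against -0.00 and 0.01 over all genes, whereas the 10 members had medians of 0.26 and 0.26. The uncertain PGLP1 row (0.80 and 0.37) is among the 10, and its second locus AT5G36790 is among the 25. The read split between these loci therefore enters both medians, and medians with the loci summed were not taken. By the average effect of pgr5, AGT1 and HPR2 were higher and DIT1, a chloroplast dicarboxylate transporter, was lower (-0.27 ± 0.08, lost in 9 of 12 omissions).

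Calls outside the cycle included peroxisomal genes. Of 14 peroxide-forming or peroxide-removing enzymes and catalase partners, 4 were higher in sapx tapx pgr5 against wild type and 0 lower (median 0.36), where 6.21% of all genes were called higher. NCA1, a chaperone needed for catalase activity, was at 65.5 ± 1.69 CPM in wild type and 94.4 ± 3.34 in sapx tapx pgr5 (log2 0.53 ± 0.10, adjusted p = 0.00511). In pgr5 it was at 85.0 ± 6.06 CPM and did not pass (0.38 ± 0.10, adjusted p = 0.0507). The acyl-CoA oxidases of fatty acid β-oxidation release hydrogen peroxide. Of those in the list, ACX1 was higher by 0.62 ± 0.12 and ACX2 by 1.36 ± 0.23, whereas ACX3, ACX4 and ACX5 were not called. ACX2 is a low gene at 4.61 ± 1.81 CPM in wild type and 11.8 ± 1.57 in sapx tapx pgr5. MDAR1, a peroxisomal monodehydroascorbate reductase, was the fourth, at 0.21 ± 0.06, lost in 11 of 12 omissions.

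Against sapx tapx, ACX1 (0.82 ± 0.12) and ACX2 (1.3 ± 0.23) were called in the triple mutant. ACX1 alone was called against pgr5 (0.59 ± 0.12, lost in 7 of 12 omissions). Among 24 genes of peroxisome import and division, 4 were higher in sapx tapx pgr5 against wild type and 0 lower, beside the same 6.21% of all genes. Among them were the protease LON2 (0.81 ± 0.14), the import receptor PEX7 (0.71 ± 0.13) and the division factor PEX11E (0.45 ± 0.10, lost in 2 of 12 omissions). In pgr5 against wild type, APEM9, which anchors the import machinery, was called alone (0.71 ± 0.17, lost in 5). The average effect of pgr5 called 5 of the 14 and 7 of the 24 higher and 0 lower, where 8.28% of all genes were called higher. ACX1 is among the 5 (0.43 ± 0.09). Its interaction was 0.78 ± 0.17 and did not pass (adjusted p = 0.157, edgeR quasi-likelihood test). For ACX1 the average therefore need not describe pgr5 in each background.

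**Figure D5:**
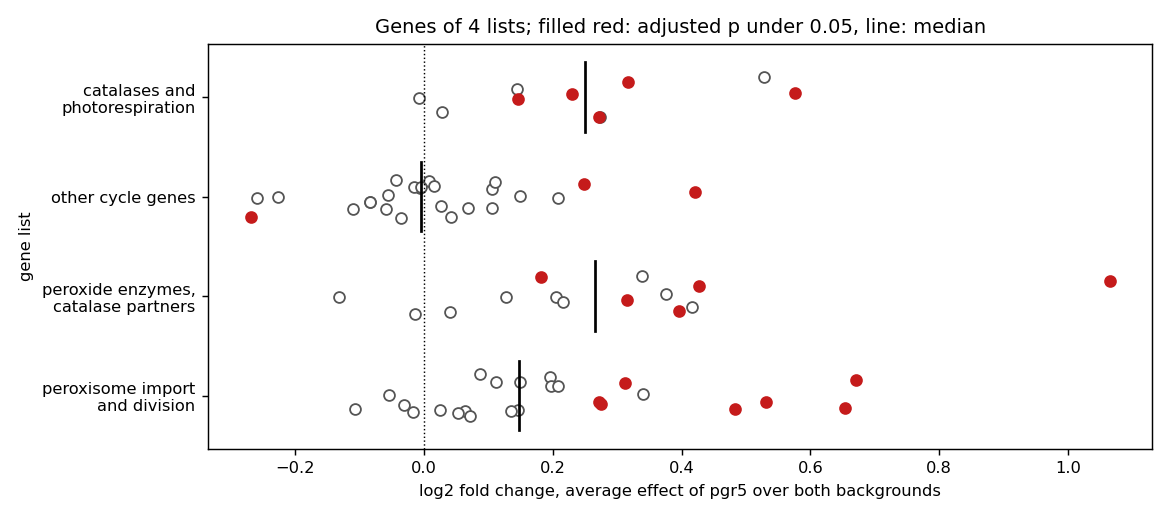
Average effect of pgr5 over both backgrounds (log2 fold change, horizontal axis) for the genes of 4 lists, a point for each tested gene, filled red for adjusted p under 0.05, with a vertical line at each median. The medians are 0.25 for the members, -0.00 for the other cycle genes, 0.27 for the peroxide enzymes and catalase partners, and 0.15 for peroxisome import and division. The uncertain PGLP1 row is among the members, and its second locus AT5G36790 is among the other cycle genes.

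CAT2 expression had close parallels. Over the 12 libraries and among 10216 genes of at least 10 CPM, its log2 level was most alike to FIB (Pearson r = 0.977), ECT8 (0.968) and HCF173 (0.967). CAT1 was most alike to NBR1 (0.853), AT5G10350 (0.853) and AT3G11450 (0.851), and CAT3 to AT1G31780 (0.887), DGAT2 (0.842) and UXS4 (0.828). For CAT2 the libraries fall into separate sets with and without pgr5, and the coefficient is taken across that split. The points share libraries and depth, and no p is given.

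Without the 3 libraries that stand apart, CAT2 kept its calls, with log2 fold changes of 0.46 (adjusted p = 0.0248) in pgr5 against wild type, 0.63 (0.00304) in sapx tapx pgr5 against wild type and 0.66 (0.00414) against sapx tapx, by the edgeR quasi-likelihood test. GOX2 and HPR1 in sapx tapx pgr5 against wild type also stayed called (adjusted p = 0.037 and 0.0184). Over all 11 settings other than single omissions, however, the GOX2 call was lost in 5 and the HPR1 call in 4. Transcript levels do not measure enzyme amount or activity, and neither was measured here.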

How the data were processed

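Fully expanded rosette leaves of 4 genotypes were measured by RNA-seq in 12 libraries. The authors deposited 1 table per library, holding whole-number counts of total and unique exon reads for each gene, and RPKM, per the file headers. The deposited RPKM equals exon reads per exon length and per sum of gene reads. Coordinates are on TAIR10, as the submitters' processing notes name it. Aligner, counter and annotation: not given in the sources used. RefSeq TAIR10.1 served for names (28009 of 28642 loci matched) and sequences, and its gene bounds differ from the deposited ones for all 10 members.

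The counts (total exon reads) entered edgeR 4.0.16 (R 4.3.3) with TMM scaling, filterByExpr (16350 genes) and 1 quasi-likelihood fit over 12 libraries. Calls are Benjamini-Hochberg adjusted p under 0.05, and all p-values are two-sided. SE came from the test statistic. Alternatives used limma 3.58.1 on log2(RPKM + 1 or + 0.1) and DESeq2 1.42.0. The floor, 3 reads, equals 0.439 to 0.610 CPM and covers counting error only. The fit was first tested on simulated counts.

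The members and lists were chosen with earlier results of these data known. All 10 members are reported. From other lists, up to 4 called genes in each direction with the smallest adjusted p were named. The values of 1 gene that this rule selects are not reported here. Likeness named the 3 genes with the highest correlation. Same-numbered libraries were checked for pairing, with the mixed result given below, and the main fit used no pairing.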

Additional observations from a re-analysis of the deposited data

How the results depend on the processing

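CAT2 kept its calls in sapx tapx pgr5 against wild type and against sapx tapx under all 12 omissions of a library and all 11 other settings (log2 0.55 to 0.75). Only in pgr5 against wild type was it lost, in 5 of 12 omissions. Members called in pgr5 against wild type numbered 1, and 2 with DESeq2 and without the 3 libraries that stand apart, where PGLP1 joined. They ranged from 0 to 1 over the omissions, and without wild type replicate 2 the 1 member called was the uncertain PGLP1 row and not CAT2. Members called in sapx tapx pgr5 against wild type numbered 3, and 1 with the gene length trend removed, with limma on RPKM at a pseudocount of 1 or 0.1, or with the compared groups only, and 1 to 3 over the omissions. In that comparison the length trend and limma at a pseudocount of 1 also moved the split of all genes, from 1016 higher of 1685 called to 850 of 1770 and 823 of 1934. The causes were not tested.

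The replicate block gave 6 members in pgr5 against wild type, 4 in sapx tapx pgr5 against sapx tapx and 8 in the average pgr5 effect (all genes 904, 1536 and 2947, against 638, 1293 and 2444 without it). In sapx tapx pgr5 against wild type it gave 4 members (all genes 2132, against 1685 without it). PGLP1 was among the 6 (adjusted p = 0.0450 by edgeR). The numbers share no stated source. Of 18 same-numbered pairs, 7 had correlated deviations over 0.1 (range -0.67 to 0.62), and 7 of 12 libraries were most like one of their own number. No result that was called changed direction. Depth limits CAT1, at 127 to 257 reads per library, and the unique reads of PGLP1, at 6 to 17. The averages and the summed PGLP1 loci were chosen after seeing the data.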
